A study of Mus musculus with 9 samples.

Results

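Ndufaf1, Tmem87a, Lcmt2 and Ppip5k1 lie in this order on mouse chromosome 2, and their signals stood apart on arrays of motor neurons from SOD1 mutant mice. They were selected on that difference, that is, chosen by their values on the mutant and wild-type motor neuron arrays, so their differences between those groups are given as a description, without a test. The 4 genes are 4 of the 18194 named by the array's annotation. They are read by 5 probe sets, none of them shared with another gene, 1 each for Ndufaf1, Tmem87a and Lcmt2 and 2 for Ppip5k1, called here the brighter and the dimmer by their mean signal. All 5 were above background on all 9 arrays and passed the filter on dim probe sets.

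Expression was measured on 9 Affymetrix Mouse 430 2.0 arrays, 3 of spinal cord tissue from wild-type mice, 3 of laser-captured motor neurons from wild-type mice and 3 of laser-captured motor neurons from mice with a mutant SOD1. The sample descriptions call the tissue total cord, whereas the titles give the ventral cord for every array. The labels used here do not give the SOD1 allele, the mouse strain, how neurons were recognised before capture and whether arrays share an animal. A code in the titles, D28, is not explained, so neither age nor disease stage is known, and the p-values measure the spread between arrays, which may be partly technical. SOD1 encodes a superoxide dismutase of the cytosol, and its mutations underlie a familial form of amyotrophic lateral sclerosis, in which motor neurons degenerate. Laser capture lifts selected cells out of a tissue section and yields little RNA, and in such a sample a change in the mix of cells and a change of RNA per cell cannot be told apart.

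The 4 genes have unrelated products. Ndufaf1 encodes an assembly factor of complex I, the entry point of electrons into the mitochondrial respiratory chain. It works in the intermediate that builds the membrane arm of the complex and is not part of the finished enzyme. Tmem87a encodes a multi-pass membrane protein of the Golgi with a luminal GOLD domain, a fold shared with proteins of vesicular transport, and has been linked to traffic from endosomes to the Golgi. Lcmt2 encodes the methyltransferase of the last steps of wybutosine synthesis, which makes the bulky base beside the anticodon of phenylalanine tRNA and helps to keep the reading frame. Ppip5k1 encodes a kinase that adds a further phosphate to inositol phosphates and so forms inositol pyrophosphates, signalling molecules tied to cellular energy and phosphate supply.

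All 4 genes are transcribed from the same strand. The 250 bases upstream of the start are printed for Ndufaf1 and Ppip5k1 because these 2 windows lie in no other annotated gene and because the 2 genes form the ends of the stretch. The sequences are from RefSeq (build GRCm38.p6, minus strand, written 5′ to 3′), with capitals for every match to a searched motif on either strand. The Ndufaf1 window is chr2:119662835-119663084 and the Ppip5k1 window is chr2:121351014-121351263.
Ndufaf1: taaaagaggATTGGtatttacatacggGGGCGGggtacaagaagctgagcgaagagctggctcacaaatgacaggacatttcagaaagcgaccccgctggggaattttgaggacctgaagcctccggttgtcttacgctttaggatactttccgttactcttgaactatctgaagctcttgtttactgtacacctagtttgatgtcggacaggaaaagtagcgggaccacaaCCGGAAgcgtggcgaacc
Ppip5k1: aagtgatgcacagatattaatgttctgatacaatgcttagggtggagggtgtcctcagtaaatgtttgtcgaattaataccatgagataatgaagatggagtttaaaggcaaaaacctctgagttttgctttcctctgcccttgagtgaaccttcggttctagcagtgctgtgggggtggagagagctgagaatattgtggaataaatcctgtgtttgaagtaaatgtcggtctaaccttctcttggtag
Both strands were searched for the TATA box, spelled TATAAA. The CCAAT box was searched by its own letters. The GC box was searched as GGGCGG and the core of sites for ETS factors as CCGGAA. The NRF1 palindrome was searched too. The matches printed do not overlap one another. The Ndufaf1 window holds a CCAAT box, a GC box and an ETS core and has 13 CG pairs, against a median of 6 over 32851 promoters. The Ppip5k1 window holds no match and has 3 CG pairs. The Tmem87a window, in which Ganc is also transcribed, holds a GC box and an ETS core and has 13 CG pairs. The Lcmt2 window, in which Adal is also transcribed, holds no match and has 10 CG pairs. Over all promoters of this length, a CCAAT box was found in 33.8%, a GC box in 32.7%, a TATA box in 12.4%, an ETS core in 12.03% and the NRF1 palindrome in 0.782%. No motif was found in all 4 windows.

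Tmem87a was the extreme of the 4. Its signal, in the arbitrary units of the scaled arrays, was 1028, 1152 and 953 on the cord arrays. It was 463, 372 and 471 on the wild-type motor neuron arrays. On the mutant motor neuron arrays it was 12639, 7535 and 11138. The lowest mutant array lay 16.0-fold above the highest wild-type motor neuron array and 6.54-fold above the highest cord array. The means were 1044 ± 100 for cord, 435 ± 55.2 for motor neurons of wild-type mice and 10437 ± 2623 for those of mutants (SD, n = 3), and no pair of groups overlapped. The mutant arrays were also the most variable for this gene, with a coefficient of variation of 25.1% against 12.7% in wild-type motor neurons. On the log2 scale the difference between mutant and wild-type motor neurons was 4.49 ± 0.24 (SE), or 22.5-fold, and it ranked 4 from the highest of the 27022 probe sets tested.

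Ndufaf1 went the other way. Its signal was 7038, 6769 and 6866 on the cord arrays, 16418, 13361 and 14406 on the wild-type motor neuron arrays and 8765, 7185 and 6556 on the mutant motor neuron arrays. Every mutant array lay below every wild-type motor neuron array, whereas mutant and cord arrays overlapped. The group means were 6891 ± 136, 14728 ± 1554 and 7502 ± 1138 in that order (SD, n = 3). The mutant level was lower than that of wild-type motor neurons by 1.97-fold, a log2 difference of -0.98 ± 0.16 (SE).

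Lcmt2 was also lower on the mutant arrays. Its signal was 1348, 1237 and 1343 on cord arrays, 2111, 2930 and 2730 on those of wild-type motor neurons and 686, 712 and 1005 on those of mutant ones. The 3 groups did not overlap, with mutant motor neurons lowest, cord between and wild-type motor neurons highest. The means were 1309 ± 62.3, 2590 ± 427 and 801 ± 177 in the order of the groups above (SD, n = 3). The log2 difference between mutant and wild-type motor neurons was -1.68 ± 0.25 (SE), a 3.20-fold lower level, and ranked 210 from the lowest.

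The 2 probe sets of Ppip5k1 differed from each other. The dimmer one gave 1216, 1605 and 1747 on cord arrays, 2014, 2129 and 1802 on those of wild-type motor neurons and 603, 776 and 588 on those of mutant ones. All mutant arrays lay below all arrays of both wild-type groups, and the wild-type motor neuron arrays lay above the cord arrays without overlap. The log2 difference between mutant and wild-type motor neurons was -1.57 ± 0.24 (SE), a 2.98-fold lower level. The brighter one gave 4485, 5640 and 5342 on cord arrays, 5300, 5750 and 5554 on those of wild-type motor neurons and 4493, 5391 and 4611 on those of mutant ones. With this probe set the 3 groups overlapped, and the log2 difference was -0.20 ± 0.16 (SE). The lower Ppip5k1 signal on the mutant arrays was therefore seen with 1 of its 2 probe sets, and the part of the transcript that each reads is not known here.

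**Figure D1:**
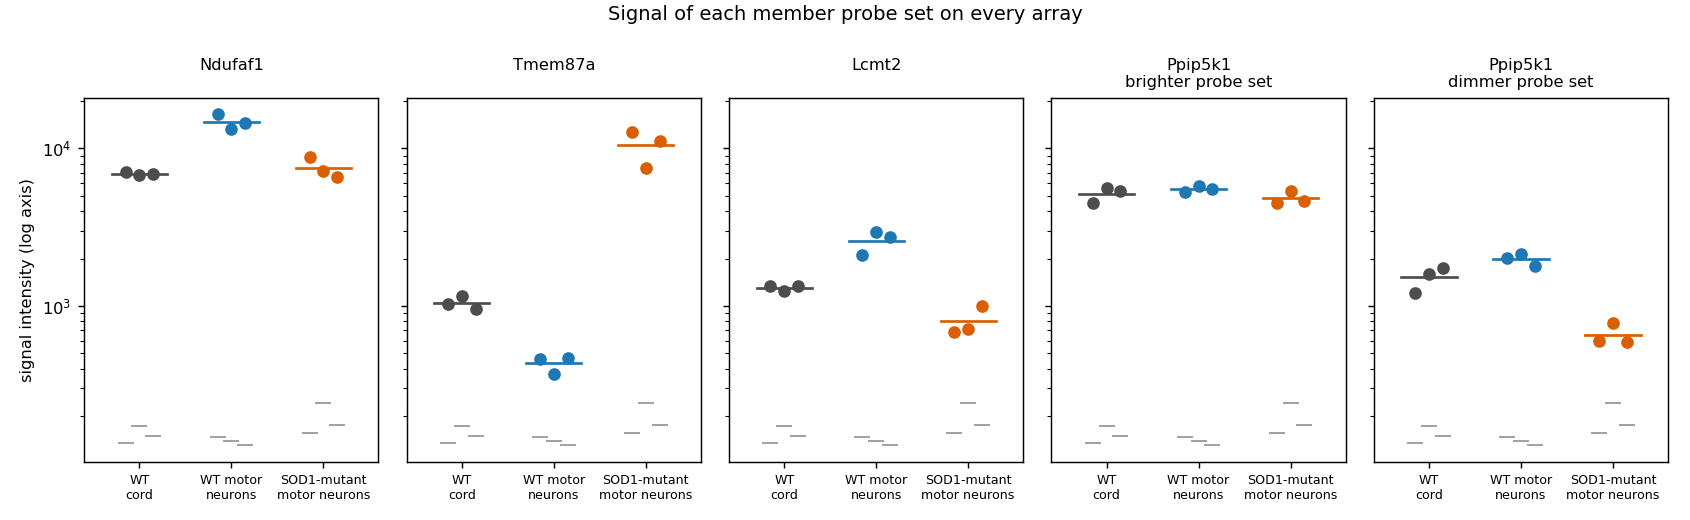
Signal of each of the 5 probe sets on every array (points; horizontal lines are group means and grey dashes each array's background; log axis, arbitrary units of the scaled arrays) for 3 arrays each of cord (wild type), wild-type motor neurons and motor neurons of SOD1 mutants. Tmem87a runs from 7535 to 12639 on the mutant arrays and stays at or below 1152 on all others, whereas the brighter Ppip5k1 probe set overlaps across the groups.

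With limma and an adjusted p threshold of 0.05, 4 of the 5 probe sets passed between mutant and wild-type motor neurons, 1 higher and 3 lower. The share over all 27022 probe sets was 0.222%, with 0.152% higher and 0.0703% lower. Since this contrast chose the genes, nothing is read from that count. The arrays of the 2 groups did not overlap for 4 of the 5 probe sets, against 22.3% of all probe sets. Values without 1 array come from the same arrays and are a description too. Without each of the 6 arrays in turn, Tmem87a was at 4.34 to 4.71, Ndufaf1 at -1.09 to -0.89, Lcmt2 at -1.85 to -1.58 and the dimmer Ppip5k1 probe set at -1.70 to -1.50. The 3 lower differences were close to the threshold, and each missed it without any one of 5 of the 6 arrays. Ndufaf1 missed it without every array but mutant replicate 1, and Lcmt2 and the dimmer Ppip5k1 probe set without every array but mutant replicate 2.

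**Figure D2:**
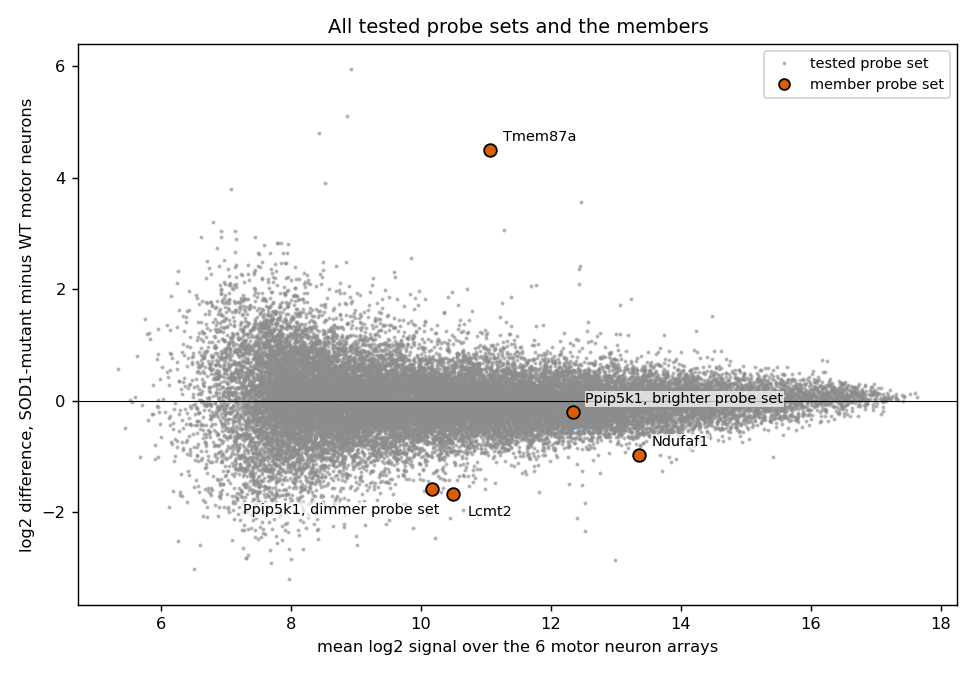
Log2 difference between SOD1 mutant and wild-type motor neurons against mean log2 signal over the 6 motor neuron arrays, for the 27022 probe sets tested (grey points) and the 5 probe sets of the 4 genes (orange). Tmem87a stands at 4.49, and the brighter Ppip5k1 probe set at -0.20. The place of Tmem87a along the signal axis averages a low level in wild-type and a high level in mutant motor neurons (mean log2 signal 8.82 and 13.32).

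The comparison of wild-type motor neurons with cord does not use the mutant arrays, although its motor neuron arrays also took part in the choice of the genes. In this comparison Ndufaf1 was higher in motor neurons by 2.13-fold (log2 difference 1.09 ± 0.10, SE, limma adjusted p = 1.75e-05) and Lcmt2 by 1.95-fold (0.96 ± 0.17, adjusted p = 9.10e-04). Tmem87a was lower by 2.34-fold (-1.23 ± 0.23, limma adjusted p = 0.00138). Ppip5k1 did not pass with either probe set, with 0.39 ± 0.18 (limma adjusted p = 0.0848) for the dimmer and 0.11 ± 0.12 (adjusted p = 0.432) for the brighter. Thus 3 of 5 probe sets passed, 2 higher and 1 lower, against 65.5% of all probe sets, 24.0% higher and 41.5% lower.

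The values against cord depend on how the arrays are scaled to one another. The median log2 difference of all probe sets between wild-type motor neurons and cord was -0.35 with the deposited scaling. It was 0.56 when every array was centred at its own median log2 value and 0.13 with quantile normalization. With the deposited scaling Tmem87a ranked 7389 from the lowest of the 27022 probe sets. With centring the Tmem87a difference was -0.32 (limma adjusted p = 0.269) and with quantile normalization -0.29 (adjusted p = 0.297), so that its lower level in wild-type motor neurons did not pass under either. Ndufaf1 and Lcmt2 passed as higher under all 17 alternatives fitted. The dimmer Ppip5k1 probe set passed as higher with centring (1.30, adjusted p = 2.93e-04) and with quantile normalization (1.12, adjusted p = 9.41e-04), and the brighter one with centring (1.02, adjusted p = 1.16e-04).

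Mutant motor neurons were set against cord as well. This comparison shares its mutant arrays with the choice of genes and its cord arrays with the comparison above, so its values are a description placed beside the others. Tmem87a was 9.63-fold above cord (log2 difference 3.27 ± 0.20, SE). Lcmt2 was -0.72 ± 0.21 and the dimmer Ppip5k1 probe set -1.19 ± 0.23, both below cord. Ndufaf1, at 0.11 ± 0.13, and the brighter Ppip5k1 probe set, at -0.09 ± 0.14, overlapped with cord. Of the 5 probe sets, 3 passed the threshold, 1 higher and 2 lower, against 62.1% of all probe sets, 21.9% higher and 40.2% lower. Nothing is read from that count, since the mutant arrays took part in the choice. The log2 differences also moved with the scaling. With centring Ndufaf1 was above cord at 0.96 and the brighter Ppip5k1 probe set at 0.76, against 0.17 and 0.13 with quantile normalization. The dimmer Ppip5k1 probe set came to -0.34 with centring and -0.31 with quantile normalization and passed under neither. Lcmt2 turned to 0.13 with centring and 0.16 with quantile normalization. Tmem87a was at 4.11 with centring and 3.87 with quantile normalization, whereas the order of mutant motor neurons and cord for the other 3 genes depends on the scaling or is not settled.

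Markers of the captured cells were checked beside these results. The summed signal of 6 motor neuron genes (Chat, Slc18a3, Slc5a7, Isl1, Mnx1 and Prph) was 9544 to 15797 on the cord arrays, 113033 to 119770 on wild-type and 86820 to 97812 on mutant motor neuron arrays. None of the 6 passed between mutant and wild-type motor neurons, with 1 of 6 above 0 and a median log2 difference of -0.24. Astrocyte genes (Gfap, Aqp4, Slc1a2, Slc1a3, Aldh1l1 and Gja1) summed to 201344 to 217365 for cord, 22821 to 37316 for wild-type and 50894 to 60104 for mutant motor neurons. Of these 6 genes, 5 were above 0 and 1 passed, Gja1, the main gap junction protein of astrocytes, at 1.25 ± 0.15 (SE, limma adjusted p = 0.0170). Oligodendrocyte genes summed to 452391 to 539919 for cord, 237585 to 250328 for wild-type and 273647 to 306986 for mutant motor neurons. In the same order, microglial genes summed to 43309 to 46436, 2529 to 3090 and 3813 to 4339. Vascular and meningeal genes summed to 44253 to 97829, 1795 to 2692 and 2553 to 3704. In these 3 lists no gene passed, and 4 of 5, 5 of 6 and 4 of 5 tested genes were above 0. Inhibitory interneuron genes were at 56769 to 65203 for cord and overlapped between wild-type and mutant motor neurons, at 17675 to 20326 and 16030 to 24175. The microglial genes Aif1 and C1qc did not exceed background on any of the wild-type motor neuron arrays. The part of these other cells in the differences of the 4 genes was not tested.

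The motor neuron arrays carried far less 5′ than 3′ signal. For the Gapdh control the 3′ over 5′ ratio, as log2, came to -0.28 ± 0.01 on cord arrays, 4.03 ± 0.44 on wild-type and 4.49 ± 0.15 on mutant motor neuron arrays (SD, n = 3). The Actb control gave 0.66 ± 0.03 on cord arrays, 4.52 ± 0.40 on wild-type and 5.26 ± 0.58 on mutant motor neuron arrays. The part of this in the differences was not tested, for the 2 Ppip5k1 probe sets in particular. Log2 signals of arrays in the same group correlated at 0.976 to 0.983 in cord, 0.935 to 0.960 in wild-type and 0.931 to 0.958 in mutant motor neurons, over probe sets, which are not independent replicates. None of the 4 tested Sod1 probe sets passed between mutant and wild-type motor neurons. One of them, the brightest in cord, gave 96983 to 101398 and 84714 to 131987 (log2 difference 0.14 ± 0.16, SE, limma adjusted p = 0.698). Whether these probe sets read the mutant transcript is not known here.

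The genes around them on the chromosome were examined next. From Ndufaf1 to Ppip5k1 the RefSeq table (GRCm38.p6, used for gene order) lists 53 genes, 40 of them protein-coding. Of these, 37 were on the array and 32 were tested, 28 besides the members. There were 10 tested genes between Ndufaf1 and Tmem87a, 13 between Tmem87a and Lcmt2 and 5 between Lcmt2 and Ppip5k1, so the members were not next to one another. With 1 probe set per gene, none of these 28 genes passed in limma between mutant and wild-type motor neurons, and 4 had an unadjusted p under 0.05. Over all 12983 genes the shares were 0.254% and 16.8%. The median log2 difference of the 28 was 0.02, with 15 above and 13 below 0 and a range of -0.9996 to 0.97. Over all 56 probe sets of these 28 genes the median was -0.09 and the range wider, -2.24 to 2.07, and again none passed in limma, with 11 at an unadjusted p under 0.05. The lowest adjusted p among them was 0.106, that of Mga, a transcription factor that pairs with MAX.

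With the 20 nearest tested genes on each side added, 68 genes besides the members were tested. None passed in limma and 19 had an unadjusted p under 0.05. The lowest adjusted p, 0.0785, was that of Pdia3, a disulfide isomerase of the endoplasmic reticulum, with a log2 difference of -0.97 ± 0.19 (SE). The arrays of the 2 groups did not overlap for 36.8% of the 68 genes, 15 higher and 10 lower, against 24.3% of all genes. All probe sets of these genes gave the same count, 0 of 124. With all 9 arrays in 1 fit, 8 of the 68 genes passed, 4 higher and 4 lower. Calls over all probe sets rose in that fit as well, to the count given in the section on processing. Without mutant replicate 1, 1 of the 68 passed as lower. On the whole chromosome, 5 of 1053 tested genes passed, 3 of which were the members Ndufaf1, Tmem87a and Lcmt2. The other 2 were Fam227b, 49 tested genes from Tmem87a (log2 difference 2.55 ± 0.31, SE, limma adjusted p = 0.0170), and Sdc4, which encodes a cell surface proteoglycan, 330 tested genes away (1.96 ± 0.28, adjusted p = 0.0332). Between wild-type motor neurons and cord 38 of the 68 passed, 16 higher and 22 lower, or 55.9% against 67.3% of all genes.

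**Figure D3:**
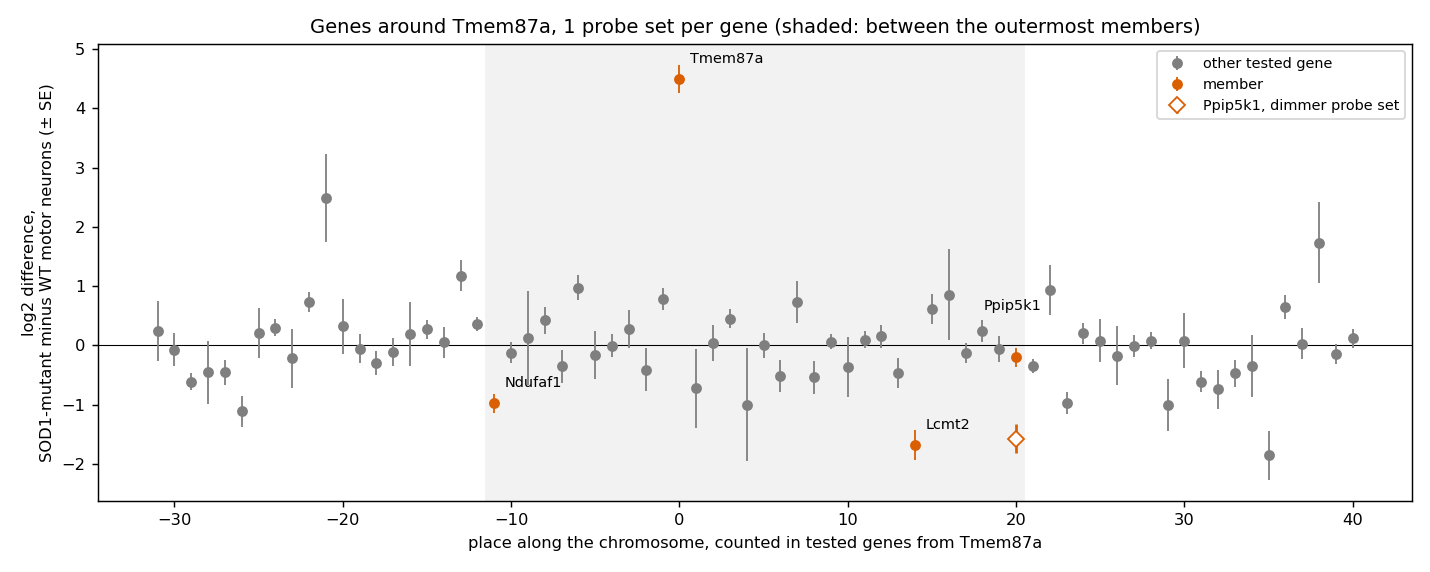
Log2 difference (± SE) between SOD1 mutant and wild-type motor neurons for the 72 genes tested around Tmem87a, in order along the chromosome and counted in tested genes, with 1 probe set per gene. The 4 members are orange, the open diamond is the second Ppip5k1 probe set, and the shaded stretch from Ndufaf1 to Ppip5k1 holds 28 other genes between -0.9996 and 0.97, or between -2.24 and 2.07 when all their probe sets are taken (not drawn).

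The start of Tmem87a lies 220 bases from that of Ganc, a neutral alpha-glucosidase gene on the opposite strand whose transcript overlaps it. Ganc gave 848, 814 and 824 on cord arrays, 665, 214 and 571 on those of wild-type motor neurons and 483, 76.9 and 413 on those of mutant ones. The 2 motor neuron groups overlapped (log2 difference -0.72 ± 0.67, SE, limma adjusted p = 0.638), and the lowest mutant array was below background. Ganc did not share the high mutant values of Tmem87a. On the other side of Tmem87a lies Vps39, a subunit of the HOPS tethering complex of late endosomes and lysosomes. Its signal was 6989, 4577 and 6127 in wild-type and 11557, 8810 and 9854 in mutant motor neurons. These groups did not overlap, but the log2 difference of 0.78 ± 0.19 (SE) did not pass (limma adjusted p = 0.125). Against cord, where Vps39 was at 5218, 5617 and 5816, the mutant arrays were higher by 0.85 ± 0.13 (adjusted p = 5.85e-04).

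Lcmt2 has a similar partner. Its start lies 270 bases from that of Adal, an adenosine deaminase-like gene on the opposite strand whose transcript also overlaps it. Adal gave 4414, 2106 and 3180 in wild-type and 4757, 4472 and 5013 in mutant motor neurons. Every mutant value was above every wild-type motor neuron value, the reverse of Lcmt2, but the log2 difference of 0.61 ± 0.25 (SE) did not pass (limma adjusted p = 0.281). Ccndbp1, a cyclin D-binding protein gene on the other side of Lcmt2, overlapped between the groups at -0.47 ± 0.26 (adjusted p = 0.419).

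The genes beside Ndufaf1 and Ppip5k1 did not pass between mutant and wild-type motor neurons either. Oip5os1, a long non-coding RNA, gave 35435, 36814 and 34832 in wild-type and 46406, 49988 and 41581 in mutant motor neurons, without overlap (log2 difference 0.36 ± 0.12, SE, limma adjusted p = 0.199). Rtf1, a transcription elongation factor, was at -0.12 ± 0.17 and overlapped. Map1a, a microtubule-associated protein of neurons, was at -0.06 ± 0.22 and overlapped. Ckmt1, the mitochondrial creatine kinase, gave 48705, 43277 and 44662 in wild-type and 37604, 33185 and 36971 in mutant motor neurons (-0.34 ± 0.12, adjusted p = 0.216). All mutant Ckmt1 values lay below all wild-type motor neuron values and above all cord values, the highest of which was 23043.

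The functional relatives of each gene were taken from 4 lists. Their values against cord below are those of the deposited scaling. Such values depend on it, as described above, so the direction of the smaller ones is not settled. Of the complex I assembly genes besides Ndufaf1, 14 of 15 were tested and none passed in limma between mutant and wild-type motor neurons. Of the 14, 2 had an unadjusted p under 0.05, and over all genes tested 0.254% passed and 16.8% had such a p. The median log2 difference of the 14 was -0.30, with 4 above and 10 below 0, against a median of -0.0051 over all genes tested. Over all 21 probe sets of these genes the median was -0.15, against -0.01 over all probe sets tested. Ndufaf2, an assembly factor that stays with late intermediates, was at 19397 ± 1504 in wild-type and 19316 ± 2767 in mutant motor neurons (SD, n = 3; log2 difference -0.01 ± 0.15, SE). Ndufaf8 was at 0.44 ± 0.24 and Ndufaf5, which modifies a core subunit, at 0.11 ± 0.15. Among the partners of Ndufaf1 in the same assembly intermediate, Ecsit was at -0.30 ± 0.21, Acad9 at -0.30 ± 0.33, Timmdc1 at -0.15 ± 0.21, Tmem126b at -0.98 ± 0.54 and Tmem186 at -1.12 ± 0.45, and all overlapped between the groups. The other Acad9 probe sets were at 0.39 ± 0.14 and -0.15 ± 0.39. The other 3 Tmem186 probe sets were at -0.21, -0.14 and -0.32, and the lowest mutant value of Tmem126b, 112, was below the background of every array. Between wild-type motor neurons and cord, 8 of the 14 were higher and 4 lower, with a median of 0.60. Over all genes tested 31.1% were higher and 36.1% lower, with a median of -0.10. With all 21 probe sets of the list, 9 were higher and 5 lower and the median was 0.19. Ndufaf2 was higher by 1.69 ± 0.09 (SE, limma adjusted p = 9.62e-07), whereas Tmem126b was lower, at -2.46 ± 0.34 (adjusted p = 2.37e-04). Ndufaf1 itself, not counted here, was higher too.

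Of the relatives of Tmem87a among GOLD-domain membrane proteins, 6 of 7 were tested. None passed in limma between mutant and wild-type motor neurons, 1 had an unadjusted p under 0.05, and the median was -0.05. The shares over all genes tested were 0.254% and 16.8%. Tmem87b, the nearest paralogue, was at 3178 ± 413 in wild-type and 4652 ± 526 in mutant motor neurons (SD, n = 3). The groups did not overlap, but its log2 difference of 0.55 ± 0.18 (SE) did not pass (limma adjusted p = 0.202). The other Tmem87b probe sets were at 0.24 ± 0.48 and -0.05 ± 0.27. Gpr180 was at -0.21 ± 0.20 and Tmem181a at -0.34 ± 0.27. Between wild-type motor neurons and cord, 3 of the 6 were lower and none higher, against the 36.1% and 31.1% of all genes given above. These were Wls, the carrier of Wnt proteins (-4.26 ± 0.41, SE, limma adjusted p = 2.75e-05), Gpr108 (-1.52 ± 0.17, adjusted p = 7.77e-05) and Tmem181a (-0.88 ± 0.22, adjusted p = 0.00684). With all probe sets of these genes, 6 of 12 were lower, against 41.5% of all probe sets.

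Of the relatives of Lcmt2, the other genes of wybutosine synthesis together with Lcmt1 and Ppme1, all 7 were tested. None passed in limma between mutant and wild-type motor neurons, 1 had an unadjusted p under 0.05, and the median was -0.27, with 2 above and 5 below 0. Over all genes tested 0.254% passed and 16.8% had an unadjusted p under 0.05. The 1 gene was Trmt5, at -0.70 ± 0.27 (SE, limma adjusted p = 0.264), lower as Lcmt2 was. Lcmt1, the methyltransferase of the phosphatase PP2A and the closest relative of Lcmt2 by sequence, was at -0.27 ± 0.18 (SE). Ppme1, the esterase that removes the same methyl group, was at -0.32 ± 0.16, and Tyw5, a hydroxylase of the wybutosine pathway, at -0.27 ± 0.23. Between wild-type motor neurons and cord, Lcmt1 was higher by 0.40 ± 0.13 (limma adjusted p = 0.0227) and Ppme1 lower, at -0.89 ± 0.10 (adjusted p = 6.60e-05). The other genes of the list did not pass with their brightest probe set. Among these Trmt5, a tRNA methyltransferase of the first step of wybutosine synthesis, had the largest value, 0.36 ± 0.20 (adjusted p = 0.137). The dimmer Tyw1 probe set passed as lower, at -2.34 (adjusted p = 6.89e-04). With all 8 probe sets of the list, 1 was higher and 2 lower, against 24.0% and 41.5% of all probe sets. Whether the relatives differed from Lcmt2 was not tested.

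Of the relatives of Ppip5k1 in inositol pyrophosphate metabolism, 8 of 11 were tested. None passed in limma between mutant and wild-type motor neurons, 2 had an unadjusted p under 0.05, and the median was -0.03. The shares over all genes tested were 0.254% and 16.8%. Nudt4 and Nudt3, phosphatases of inositol pyrophosphates, were at 0.10 ± 0.15 and -0.07 ± 0.17 (SE), and Ip6k1, the kinase that makes the first pyrophosphate, at -0.18 ± 0.13. Ppip5k2, the paralogue of Ppip5k1, was at 0.02 ± 0.25. Between wild-type motor neurons and cord, 2 of the 8 were higher by their brightest probe set. These were Ppip5k2 by 1.09 ± 0.10 (SE, limma adjusted p = 2.19e-05) and Ip6k1 by 0.41 ± 0.08 (adjusted p = 0.00212). The other Ip6k1 probe sets passed as lower, at -2.42 (adjusted p = 1.59e-04) and -1.53 (adjusted p = 6.22e-04), so the direction of Ip6k1 is not settled. The 4 genes lower by their brightest probe set with the deposited scaling were Itpk1 (-1.46 ± 0.10), Nudt3 (-0.76 ± 0.14), Ippk (-0.56 ± 0.17) and Nudt4 (-0.33 ± 0.11). The dimmer Nudt4 probe set passed as higher, at 0.46 (adjusted p = 0.00523), so the direction of Nudt4 is not settled either. The 6 of 8 genes that passed by their brightest probe set compare with 67.3% of all genes. With all probe sets, 12 of 15 passed, 3 higher and 9 lower, against 65.5% of all probe sets.

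**Figure D4:**
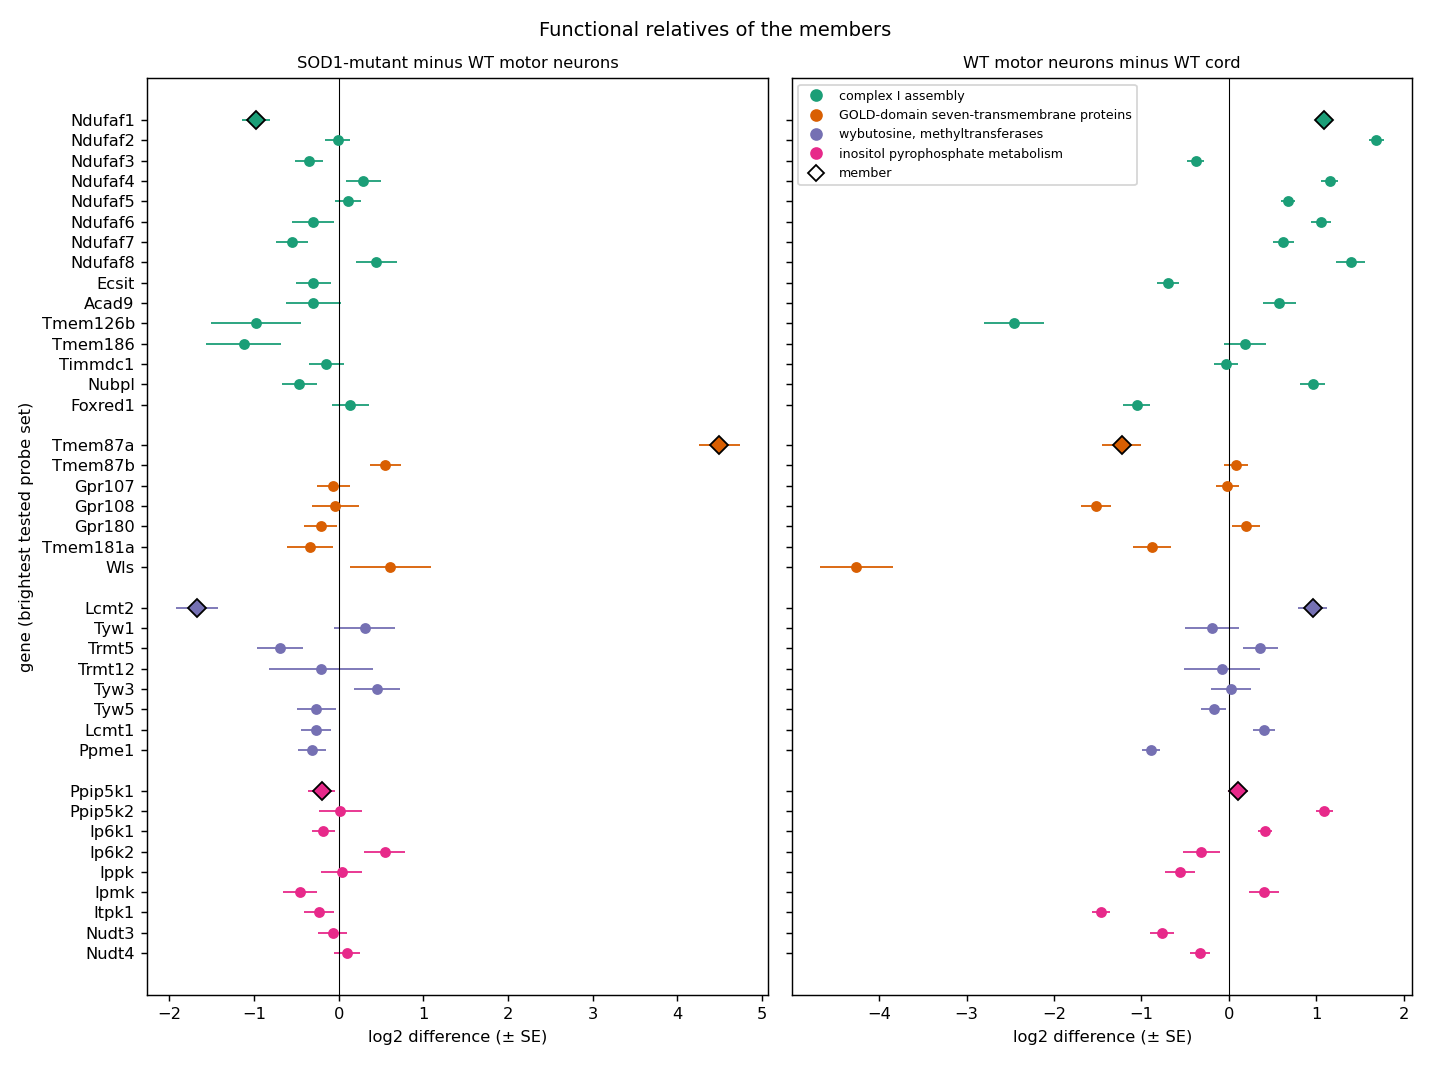
Log2 differences (± SE) of the 4 members (diamonds, brightest probe set) and of their tested functional relatives (circles), coloured by list, between SOD1 mutant and wild-type motor neurons (left) and between wild-type motor neurons and cord (right). On the left no relative passed the threshold. Tmem87a, chosen on this contrast, is drawn at 4.49, and the highest value drawn of its family is that of Wls, 0.61 ± 0.48. The distance between them was not tested, and nothing is read from it. The other Wls probe sets, not drawn, were at -0.87 ± 0.38 and -0.05 ± 0.39.

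The pattern of each gene over the 9 arrays was compared with those of all named genes by Pearson correlation of log2 signal. This is a description, since the 9 arrays form 3 groups and the choice of the genes enters it. The pattern of Tmem87a was most like those of Nudt19 (0.978), Riok3 (0.967) and Mbnl2 (0.961). Nudt19, a coenzyme A diphosphatase, was at 2183 to 2645 in wild-type and 12258 to 13537 in mutant motor neurons and at 4345 to 5188 in cord, and so had the same order of groups as Tmem87a. Ndufaf1 was most like Cox7c (0.985), Thyn1 (0.981) and Alas1 (0.971). All 3 were highest in wild-type motor neurons and overlapped between cord and mutant motor neurons, as Ndufaf1 did. Cox7c, a subunit of cytochrome c oxidase, was at 1827 to 2147 in wild-type motor neurons, 648 to 921 in mutant motor neurons and 724 to 803 in cord. Lcmt2 was most like Fibp (0.965), Lrwd1 (0.955) and Ggt7 (0.955), and each had mutant motor neurons lowest and wild-type motor neurons highest. The brighter Ppip5k1 probe set was most like Map1s (0.961), Tff2 (0.870) and Plvap (0.868). Of these 12 genes, Ggt7 alone lies on chromosome 2.

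Among the members themselves, Tmem87a and the dimmer Ppip5k1 probe set had nearly opposite patterns (Pearson r = -0.979 over the 9 arrays), as did Tmem87a and Lcmt2 (-0.907). Lcmt2 and the dimmer Ppip5k1 probe set were alike (0.855), and the 2 Ppip5k1 probe sets correlated at 0.722. Ndufaf1 followed Lcmt2 (0.753) more closely than it mirrored Tmem87a (-0.606). The brighter Ppip5k1 probe set was at 0.563 with Lcmt2, 0.413 with Ndufaf1 and -0.616 with Tmem87a. The dimmer one was at 0.573 with Ndufaf1. These correlations are a description too, since the choice of the genes and the 3 groups enter them.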

How the data were processed

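The values were probe-set signal intensities on a linear scale, used as the authors deposited them. All arrays shared a 2% trimmed mean of 2500, which shows scaling before deposit. The software behind the intensities is not named in the labels used here. Groups came from the sample descriptions and replicate numbers from the titles. The members and lists were chosen with earlier results of these data known.

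The array holds 45101 probe sets, of which 64 are controls and were removed. Values were taken to log2 after adding 20.3, the 10th percentile of all values, which shrinks fold changes at low signal. The filter kept the 27022 probe sets whose mean log2 signal over the 3 group means exceeded the 40th percentile. Those annotated to a single gene covered 12983 genes. Each comparison was fitted with limma 3.58.1 (R 4.3.3; lmFit, eBayes, trended prior) on its 6 arrays. Tests were two-sided, and p-values were adjusted by Benjamini-Hochberg over all tested probe sets, with a threshold of 0.05. The fits were tested on simulated data.

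Background was the 95th percentile of 27 Bacillus control probe sets per array, 131 to 244. A gene with several probe sets was represented by that of highest mean. Named by rule were the members, the tested gene on each side of each, the 3 relatives of highest mean per list where none passed, the 3 most alike genes per member, Sod1 and the marker lists. Mga, Pdia3, Fam227b, Sdc4, Gja1, Aif1, C1qc and the other list genes were named after their values were seen. The platform annotation named a single gene for 34945 of the probe sets, more than 1 for 932 and no gene for 9160. Symbols, gene order and promoters were from RefSeq tables of GRCm38.p6. Alternatives covered scaling, filter, pseudocount, arrays in the fit, variance trend, array weights, replicate block and leaving out arrays. Raising values to background and filtering on linear signal were added after the data were seen. Figures used matplotlib 3.10.9 in Python 3.11.15.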

Additional observations from a re-analysis of the deposited data

How the results depend on the processing

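Between mutant and wild-type motor neurons, the 60 calls over all probe sets became 1184 with all 9 arrays in 1 fit, 13777 with array weights, 20 with centring, 3 without the intensity trend, 36 with quantile normalization (30 higher and 6 lower, against 41 and 19) and 97 with values raised to background. Leaving out each array gave 6 to 71. The calls among member probe sets, 4 as reported, fell to 1 with centring (Tmem87a), 1 without the trend, 2 with quantile normalization and 1 to 3 without an array. Since these arrays chose the genes, the counts support nothing. Over the 18 alternatives Tmem87a ranged from 4.16 to 4.71. The 0 calls among 68 neighbour genes became 8 with all 9 arrays, where 1184 of all 27022 probe sets passed. They became 38 with array weights, where 13777 of the 27022 passed. With the 40 nearest genes on each side there was 1 call, and without an array 0 to 1. The cause of these shifts was not tested.

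Against cord, Lcmt2 in mutant motor neurons reversed from -0.72 to 0.13 with centring and 0.16 with quantile normalization, and calls among member probe sets in that comparison fell from 3 to 1 with quantile normalization. The split of calls for wild-type motor neurons, 6494 higher and 11206 lower, became 12942 and 5269 with centring and 9647 and 7693 with quantile normalization. For mutant motor neurons, 5925 and 10859 became 11599 and 5157, and 8997 and 7371. Array weights could not be fitted for wild-type motor neurons against cord.

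The replicate block gave 443 calls among all 27022 probe sets (226 higher and 217 lower) between mutant and wild-type motor neurons and 9 among the 68 neighbour genes. Same-numbered arrays had deviations correlating at 0.15, 0.17 and 0.00, and not every array correlated best with its own number, so the numbers do not establish pairing. The block changed no call of a member. The number of arrays, 3 per group, limits the precision.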
